A study of Mus musculus with 11 samples.

Results

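Keratin genes were followed through the first days of reprogramming of mouse embryonic fibroblasts. A keratin was any gene whose symbol is Krt followed by a digit and that had a probe set assigned to that gene alone in the array annotation, which gave 53 genes of the 22180 genes named in this way. Where a gene had several such probe sets, the brightest over all 11 arrays was used. By textbook class there were 5 simple keratins, 17 stratified keratins, 9 keratins of the inner root sheath and companion layer of the hair follicle, 16 hair shaft keratins and 6 others. The keratin 5 gene had only a probe set that it shares with Krt6a, so it was not among the 53.

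RNA was hybridised to whole-transcript Affymetrix gene arrays, with 1 array for each group. The 8 reprogramming arrays came from Rosa-rtTA+/- mouse embryonic fibroblasts (MEF, passage 4) that had been infected with doxycycline-inducible Klf4, Oct4, Sox2 and Myc and given doxycycline 1 day later, the start of the count of days. Cultures were taken on day 6 and on day 9, each as 4 populations: cells sorted for surface CD49d (CD49d+) or CD73 (CD73+), which the submitters call poised, cells sorted for lack of CD73 (CD73-), called non-poised, and unsorted cells of the whole culture. Each sorted population went through the sorter in 2 rounds, and the labels do not say how far the CD49d+ gate overlaps the CD73 gates. The 3 control arrays were the uninfected MEF, which carry the same Rosa-rtTA+/- transgene, the partially reprogrammed line SC4 at passage 10, which is 1 line, and V6.5 embryonic stem cells (ESC) at passage 11. Whether day 6 and day 9 cells came from separate infections is not stated. The spread behind each p-value was pooled over all 4 populations. For a difference between populations, the p-value therefore measures only how well such differences held on both days. For the difference between the days, it measures how alike that difference was in the 4 populations.

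Keratins are the intermediate filament proteins of epithelia. A filament is built from pairs of a type I (acidic) and a type II (basic) keratin, and the pairs differ by tissue: Krt8 with Krt18 in simple epithelia and early embryos, Krt5 with Krt14 in the basal layer of stratified epithelia, Krt1 with Krt10 in the differentiating layers above it, Krt4 with Krt13 in internal stratified epithelia, and Krt6a and Krt6b with Krt16 and Krt17 in hair follicles and in activated or wounded epidermis. Fibroblasts build their filaments chiefly from vimentin, and the passage of fibroblasts to pluripotency is known to go through a mesenchymal-to-epithelial transition.

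Promoters of 5 of the keratins described below are shown with the letters that Klf-family factors, Klf4 among them, are known to recognise. RefSeq windows on GRCm38.p6 were at hand for 35 of the 53 genes, 20 of them on chromosome 11 and 15 on chromosome 15, and Krt1, Krt6a, Krt6b, Krt16, Krt17, Krt19 and Krt80 had none at hand. The stretch printed is the 250 bases before an annotated start site, 5′ to 3′ on the gene's own strand, and capitals mark CACCC on either strand, so that GGGTG is the same motif read on the opposite strand. Krt14 (chr11:100206031-100206280, minus strand) and Krt90 (chr15:101562951-101563200, minus strand) are shown because they were high in unsorted cells.
Krt14: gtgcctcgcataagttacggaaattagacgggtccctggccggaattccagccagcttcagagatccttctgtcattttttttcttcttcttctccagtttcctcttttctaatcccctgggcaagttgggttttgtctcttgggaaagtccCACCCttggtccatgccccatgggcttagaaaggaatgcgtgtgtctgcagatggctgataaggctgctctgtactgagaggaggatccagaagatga
Krt90: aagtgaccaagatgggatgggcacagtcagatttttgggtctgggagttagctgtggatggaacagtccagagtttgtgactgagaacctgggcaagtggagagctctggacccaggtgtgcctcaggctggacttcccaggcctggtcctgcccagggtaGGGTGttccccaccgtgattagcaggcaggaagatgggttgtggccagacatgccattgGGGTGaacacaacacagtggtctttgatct
Krt13 (chr11:100121567-100121816, minus strand, the more upstream of its 2 start sites) and Krt8 (chr15:102004343-102004592, minus strand) were higher in poised than in CD73- cells, and Krt18 (chr15:102027966-102028215, plus strand) is the partner of Krt8.
Krt13: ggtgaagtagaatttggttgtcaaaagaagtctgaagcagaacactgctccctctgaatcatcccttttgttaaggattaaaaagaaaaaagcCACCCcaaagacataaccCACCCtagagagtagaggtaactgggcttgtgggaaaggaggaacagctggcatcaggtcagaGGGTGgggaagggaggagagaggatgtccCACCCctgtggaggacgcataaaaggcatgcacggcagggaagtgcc
Krt8: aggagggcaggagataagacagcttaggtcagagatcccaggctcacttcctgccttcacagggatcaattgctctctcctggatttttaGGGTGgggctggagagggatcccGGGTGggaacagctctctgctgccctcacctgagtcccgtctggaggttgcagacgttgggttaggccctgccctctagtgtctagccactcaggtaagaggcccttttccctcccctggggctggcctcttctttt
Krt18: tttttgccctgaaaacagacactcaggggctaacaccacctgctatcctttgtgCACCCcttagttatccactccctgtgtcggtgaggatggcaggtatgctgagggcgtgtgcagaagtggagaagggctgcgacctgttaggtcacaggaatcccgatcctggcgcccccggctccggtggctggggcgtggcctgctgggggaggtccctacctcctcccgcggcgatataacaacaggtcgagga
The Krt13 window printed holds 4 matches to CACCC and that of its other start site holds 1, the windows of Krt8 and Krt90 hold 2 each, and those of Krt14 and Krt18 hold 1 each. CACCC was present in 28 of the 36 keratin windows (77.8%) and in 52% of all 32851 windows of this length. TATAAA, the letters of the TATA box, was read on the gene's strand only and was in 15 of the 36 keratin windows (41.7%) against 7.59% of all windows. By gene it was found for 6 of 8 inner root sheath and companion layer keratins, 5 of 9 hair shaft keratins, 3 of 10 stratified keratins (Krt10, Krt12 and Krt76), 1 of 4 simple keratins (Krt20) and none of 4 others. A match is a description of these letters and not a binding site.

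The deposited values were linear intensities with a lowest value of 100 on every array, called the floor here. The share of probe sets at the floor was between 52.1% and 54.3% per array, and the median above it was between 347 and 388. The control arrays carried the marker genes of their labels: all 8 fibroblast markers were above the floor in MEF, with a summed intensity of 31058, and all 8 stem cell markers were above it in ESC, with a sum of 20759. Fibroblast markers were not confined to MEF, as 7 were above the floor in ESC (sum 2541) and 6 to 8 on each reprogramming array. On the reprogramming arrays the stem cell markers were at the floor except Nanog in day 9 CD73- cells (167) and day 9 unsorted cells (119.6) and Dppa4 in day 9 unsorted cells.

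Most keratins were at or close to the floor. Of the 53 genes, 31 were above it on at least 1 array and 22 were at it on all 11. The 22 were the stratified keratins Krt2, Krt4, Krt15, Krt76, Krt77 and Krt79, the inner root sheath and companion layer keratins Krt25, Krt26, Krt27, Krt28, Krt71, Krt72, Krt74 and Krt75, the hair shaft keratins Krt31, Krt33a, Krt39, Krt83 and Krt87, and Krt23, Krt24 and Krt222. Unsorted cells had the most keratins above the floor on each day, 21 against 16 to 18 in sorted cells on day 6 and 27 against 14 to 22 on day 9, with 20 in MEF, 15 in SC4 and 17 in ESC. Of all named genes, 55.0% were above the floor in unsorted cells on day 6, against 53.3% to 55.0% in sorted cells, and 56.9% on day 9, against 53.9% to 54.9%. Krt9, Krt34 and Krt82 rose above the floor only on control arrays, up to 119, and were not tested. The remaining 28 keratins could be tested, and a gene in this count had to be above the floor on at least 1 reprogramming array. In bulk RNA, fewer cells of a type and less RNA per cell cannot be told apart. Near-identical paralogs, here Krt6a with Krt6b and Krt14, Krt16, Krt17 and Krt42 with each other, may also share signal on an array, which was not tested.

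Among the simple keratins, Krt8 was above the floor on all 11 arrays. Its intensity on day 6 was 409 in CD49d+, 543 in CD73+, 340.4 in CD73- and 831 in unsorted cells, and on day 9 it was 677, 864, 584 and 1372 in the same order. MEF gave 265, SC4 220.0 and ESC 996 for Krt8. Every reprogramming array was above the MEF and SC4 arrays, the order of the 4 populations was the same on both days (CD73- lowest, then CD49d+, CD73+ and unsorted), and each population was brighter on day 9. Krt18, the type I partner of Krt8, stayed between 100 and 105 on all 6 sorted arrays and read 122 and 156 in unsorted cells on days 6 and 9. It read 100 in MEF and SC4 and 980.2 in ESC. On the sorted arrays Krt18 was thus near the floor while Krt8 was well above it, and outside ESC Krt18 never passed 156. A further Krt18 probe set, not used here, was at the floor on every array but ESC (303).

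Krt19, a type I simple keratin also found in basal cells of some stratified epithelia, differed from Krt8 in its order. On day 6 it read 167 in CD49d+, 175 in CD73+, 250.3 in CD73- and 384 in unsorted cells, and on day 9 it read 257, 279.6, 330.0 and 604. MEF gave 168, SC4 172 and ESC 428. On each day the CD73- array was above both poised arrays, and the unsorted array was the brightest. Krt20, a keratin of intestinal and urothelial cells, was highest in day 9 unsorted (169) and day 9 CD73- cells (153) and between 100 and 119.9 on the other arrays. Krt7, found in ducts and other simple epithelia, left the floor among the reprogramming arrays only in day 9 unsorted cells (105), and its highest value was 139, in ESC.

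**Figure D1:**
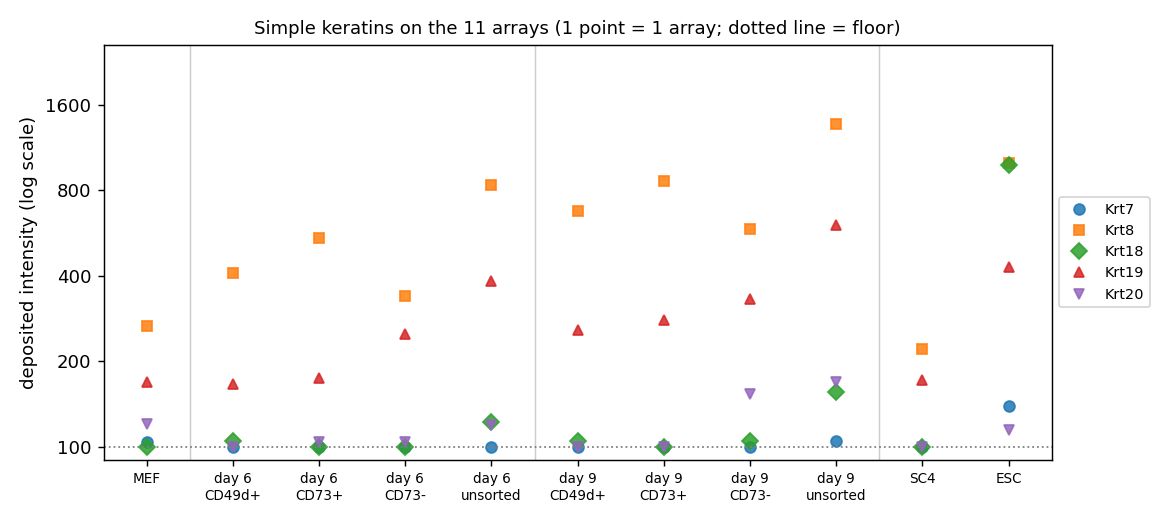
Intensity of the 5 simple keratins (log scale, floor at 100) on each of the 11 arrays, 1 point per array and no error bars because each group has 1 array. Krt8 rises from 265 in MEF to 1372 in day 9 unsorted cells, and Krt18 is near 100 everywhere but in unsorted cells and in ESC (980.2).

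The stratified keratins fell into those high in unsorted cells alone and those with other patterns. Krt14, the type I keratin of basal keratinocytes, read 163 in CD49d+, 212 in CD73+, 208 in CD73- and 943 in unsorted cells on day 6, and 252, 239, 212 and 989 on day 9. MEF gave 181, SC4 126 and ESC 143. Both unsorted arrays stood apart, and of the 6 sorted arrays only that of day 6 CD49d+ cells lay within the range of the controls. Krt16, a type I keratin of activated epidermis, was at the floor on all day 6 sorted arrays and between 100 and 126 on those of day 9. It read 368 and 376 in unsorted cells and was at the floor in all 3 controls. Krt16 thus had clear signal on the unsorted arrays only.

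Krt17, a type I keratin of hair follicles and activated epidermis, read 222.1 in CD49d+, 209.6 in CD73+, 275 in CD73- and 1247 in unsorted cells on day 6. On day 9 it read 802, 758, 373 and 2181, and the controls were 100 in MEF, 141 in SC4 and 158 in ESC. The day 9 unsorted array gave the highest intensity of Krt17, and every reprogramming array was above every control. The poised arrays were below the CD73- array on day 6 and above it on day 9. Krt6a, a type II partner of Krt16 and Krt17, read 106, 125, 109 and 338 on day 6 and 188, 218, 125 and 461 on day 9 (CD49d+, CD73+, CD73-, unsorted), and was at the floor in all controls. It was highest in the unsorted cells of each day, and the other reprogramming arrays lay above the controls.

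Krt6b, the near-identical neighbour of Krt6a, was above the floor on all 11 arrays and had a narrower range. It read 392, 339, 374 and 464 on day 6 and 669.9, 603, 462 and 791 on day 9 in the same order of populations, with 193 in MEF, 269.6 in SC4 and 128 in ESC. All reprogramming arrays were above the controls, and all 4 populations were brighter on day 9. Krt13, the type I keratin of oesophageal and other internal stratified epithelia, was the stratified keratin that followed the CD73 and CD49d gates. It read 409 in CD49d+, 246 in CD73+, 104 in CD73- and 207 in unsorted cells on day 6, and 433, 465, 165 and 447 on day 9. MEF gave 127, and SC4 and ESC were at the floor, as was Krt4, the type II partner of Krt13, on all 11 arrays. On both days the CD73- array was the lowest, and the unsorted array was within the range of the sorted ones.

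The pair of differentiating epidermis was split. Krt1 was between 100 and 127 on all sorted arrays, read 209 and 182 in unsorted cells of days 6 and 9, and was at the floor in the controls. Krt10 moved little over the 11 arrays, from 153 to 183. Krt12, the corneal keratin, was above the floor only in CD49d+ cells (106 and 109.7), and Krt78 did not pass 123 on any array. The probe set shared by Krt5 and Krt6a, which was no member, read between 103 and 129 over the 11 arrays and did not stand out in unsorted cells (117 and 129).

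**Figure D2:**
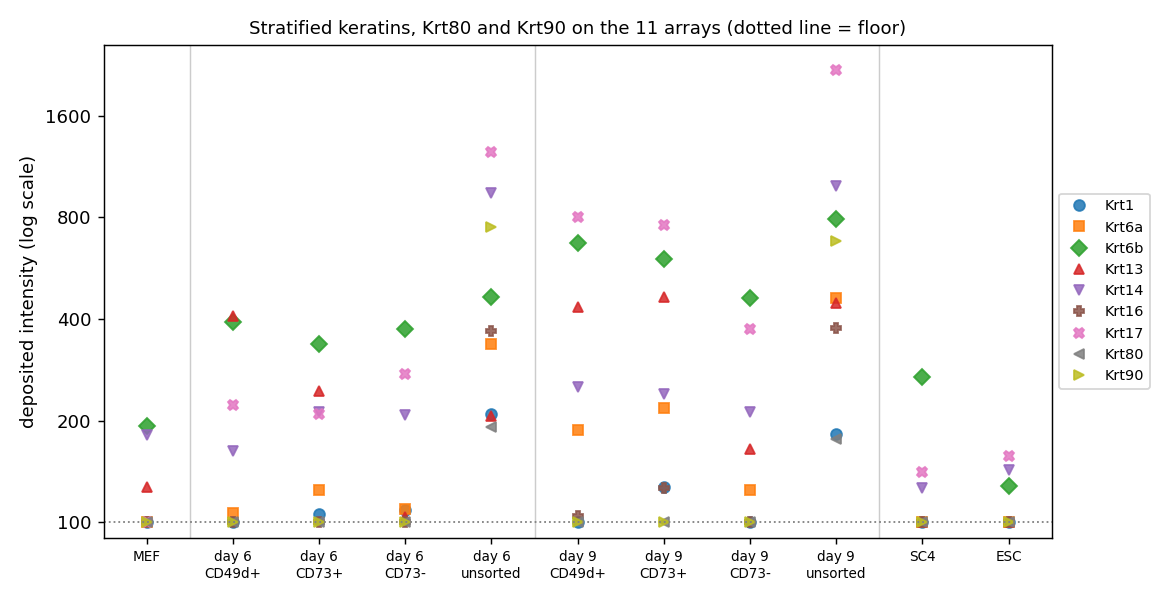
Intensity of the stratified keratins with signal, together with Krt80 and Krt90 (log scale, floor at 100), on each of the 11 arrays, 1 point per array and no error bars. Unsorted cells stand apart for Krt14 (943 and 989), Krt16 (368 and 376) and Krt90 (747 and 681), while Krt13 is lowest in CD73- cells of each day.

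Of the other keratins, Krt90 and Krt80 had signal in unsorted cells alone. Krt90, a type II keratin, read 747 in day 6 and 681 in day 9 unsorted cells and was at the floor on the other 9 arrays. Krt80, a type II keratin of differentiating epithelial cells, read 191 and 177 in unsorted cells and was likewise at the floor elsewhere. Both genes passed the filter only through the group in which they were high, so that they had to differ there. Krt42 ranged from 100.8 to 153. Among keratins of the hair follicle, Krt73 reached 137 and 164 in unsorted cells against 100 to 115 in sorted cells, Krt36 reached 176 in day 9 unsorted cells and Krt84 reached 193 in day 9 CD49d+ cells. The remaining hair shaft keratins with signal (Krt32, Krt33b, Krt35, Krt40, Krt81, Krt86 and Krt88) stayed at or below 166 and spanned ranges of at most 1.66-fold over the 11 arrays.

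Of the comparisons made among the reprogramming arrays, unsorted against sorted cells gave the most keratin calls. In unsorted cells 10 keratins were higher and none was lower than the mean of the 3 sorted populations: the simple keratins Krt8, Krt18 and Krt19, the stratified keratins Krt1, Krt6a, Krt14, Krt16 and Krt17, and Krt80 and Krt90. As Krt80 and Krt90 were tested only because of their signal in unsorted cells and had to differ, 8 keratins bear on this count. Among all 13313 genes tested, 4.16% were higher in unsorted cells and 4.38% were lower, 8.54% in either direction. This comparison was added after the values had been seen, so its p-values describe the arrays and are no independent test. Sorting itself and the make-up of the unsorted culture cannot be told apart here.

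Stratified keratins called here include basal and activation keratins. Krt14 was 4.55-fold higher (2.19 ± 0.131 on the log2 scale, standard error, limma Benjamini-Hochberg adjusted p = 0.00801) and Krt17 was 4.37-fold higher (2.13 ± 0.324, adjusted p = 0.0309). Krt16, with 4 of its 6 sorted arrays at the floor, was at least 3.55-fold higher (1.83 ± 0.0819, adjusted p = 0.00423), and Krt6a was 2.83-fold higher (1.499 ± 0.141, adjusted p = 0.0193). Krt1, also at the floor on part of the sorted arrays, was at least 1.83-fold higher (0.87 ± 0.0997, adjusted p = 0.0225). With all sorted arrays at the floor, Krt90 was at least 7.14-fold and Krt80 at least 1.84-fold higher. Krt90, Krt14, Krt16, Krt17 and Krt6a were the 5 keratins whose unsorted array was at least 2-fold above every sorted array of its day on both days, which 34 of 14301 genes with signal were (0.238%). Krt90 was among the genes with signal only through its unsorted arrays, so Krt14, Krt16, Krt17 and Krt6a bear on this count. No keratin was 2-fold below every sorted array in the same way, as 0.00699% of genes were. Over the brightest sorted array of the day, Krt14 was 4.45-fold higher on day 6 and 3.92-fold on day 9, Krt17 was 4.53-fold and 2.72-fold higher, and Krt6a 2.70-fold and 2.12-fold.

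Of the 5 simple keratins 3 were called, as were 5 of the 10 tested stratified keratins. Krt19 was 2.04-fold higher in unsorted cells (1.03 ± 0.0717, adjusted p = 0.0108), Krt8 1.96-fold higher (0.97 ± 0.0484, adjusted p = 0.00468) and Krt18, partly at the floor in sorted cells, at least 1.35-fold higher (0.43 ± 0.0862, adjusted p = 0.0484). Krt13 was not called (0.20 ± 0.203, adjusted p = 0.552), and neither were Krt6b (0.40, adjusted p = 0.0945) and Krt73 (0.48, adjusted p = 0.0547). The median log2 difference was 0.43 over the 5 simple keratins, 0.64 over the 10 tested stratified keratins and 0.02 over the 9 tested hair shaft keratins, against 0.00 over all genes tested. With either unsorted array left out, 8 of these keratins were not called, with their direction kept, and Krt80 and Krt90 could not be tested. Without the day 6 or the day 9 CD73+ array 3 keratins were called.

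Some markers of several other cell types were also higher in unsorted cells, where 4.16% of all genes tested were called higher. Those tested were 7 keratinocyte, 8 fibroblast, 4 mesothelial, 6 simple epithelial and 2 trophoblast markers. Of 9 keratinocyte markers other than keratins, 5 (Dsg3, Dsc3, Sfn, Ivl and Krtdap) were above every sorted array of their day on both days, as 11.5% of the 14301 genes with signal were, and 3 were called: Krtdap, a protein of differentiating keratinocytes (2.08), and the desmosomal cadherins Dsc3 (0.84) and Dsg3 (0.63). Dsg3 and Ivl were at the floor on all sorted arrays and passed the filter only through unsorted cells, so they could only be higher there. Of the 3 calls, those of Krtdap and Dsc3 bear on the comparison. The keratinocyte sum was 3049 and 3549 in unsorted cells and between 1308 and 2065 in sorted cells. The largest part of the unsorted sums was Krtdap alone, which read 1645 and 1787 there and between 176 and 877 in sorted cells. Trp63, the master factor of stratified epithelium, and Lor were at the floor on all 11 arrays. The fibroblast sum was 6760.1 and 8510.4 in unsorted cells and between 2679 and 6021 in sorted cells, with Dcn called higher (0.98). The mesothelial sum was 1845 and 2681 in unsorted cells against 679 to 2452 in sorted cells, with Upk1b (1.60) and Upk3b (0.42) called, and the simple epithelial sum was 1866 and 2470.3 against 1379 to 2261, with the tight junction claudins Cldn4 (1.51) and Cldn3 (0.53) called. Upk3b was at the floor on all sorted arrays, so it too was tested only because of its signal in unsorted cells. The trophoblast sum was 986 and 934 in unsorted cells and between 737 and 1027 in sorted cells, with Ascl2 called higher (0.65). On day 6 that sum was lower in unsorted than in CD73- cells (1027), and no trophoblast marker was above every sorted array on both days. The part of these cell types in the keratin differences was not tested.

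**Figure D3:**
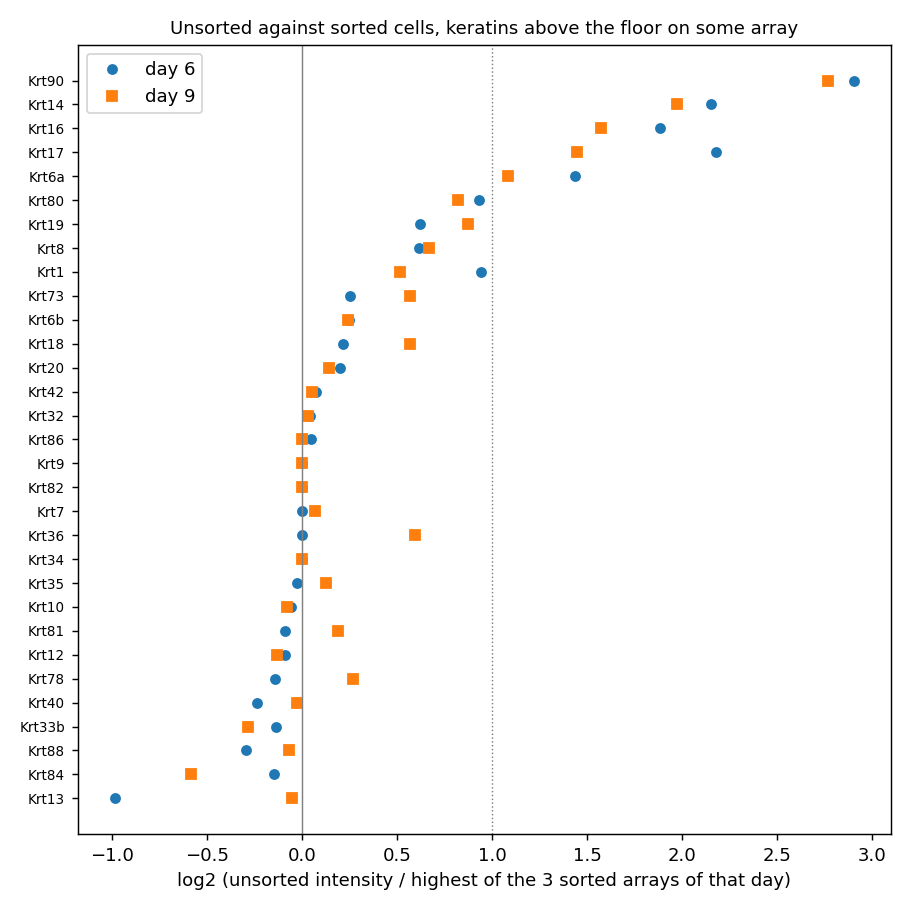
Log2 of the unsorted intensity over the brightest of the 3 sorted arrays of that day, for the 31 keratins with signal, 1 point per day (circles day 6, squares day 9) and no error bars. Krt90, Krt14, Krt16, Krt17 and Krt6a lie past the dotted line at 1 (2-fold) on both days, and Krt13 lies below 0 on both. Krt90 has signal on the unsorted arrays alone.

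Between the poised and non-poised cells the keratins did not move as a family. In poised cells (the mean of CD49d+ and CD73+), Krt13 and Krt8 were higher and Krt19 was lower than in CD73- cells, and the other keratins tested were not called. That is 3 of 28 keratins, where 12% of all 13313 genes tested were called in either direction (7.16% higher and 4.85% lower), so the share of keratins was near the background. Krt13 was 2.88-fold higher, with a log2 difference of 1.53 ± 0.215 (limma, Benjamini-Hochberg adjusted p = 0.0190). Krt8 was 1.35-fold higher (0.43 ± 0.0514, adjusted p = 0.0130), and Krt19 was lower by a log2 difference of -0.42 ± 0.0761 (adjusted p = 0.0307).

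The simple class thus held members that went in opposite directions. Its median difference was 0.00 on day 6 and -0.04 on day 9, and that of the tested stratified keratins was -0.06 on day 6 and 0.21 on day 9. In the fit over both days the median was 0.00 for the simple and 0.08 for the tested stratified keratins, against -0.01 over all genes. Krt6a (0.38, adjusted p = 0.161) and Krt17 (0.36, adjusted p = 0.564) were not called. The calls of Krt13 and Krt8 were lost when any CD73+ or CD73- array was left out or the day term was dropped, with adjusted p between 0.00427 and 0.112 for Krt13 and between 0.0102 and 0.522 for Krt8 over all alternatives. The call of Krt19 was lost under 10 of its 14 alternatives, those without the day 6 CD49d+ array, without either CD73+, CD73- or unsorted array among them (adjusted p between 0.0308 and 0.433), and no difference of the 3 genes changed sign.

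Each poised population was also set against the same CD73- arrays, so these comparisons share their controls with each other and with the one above. In CD73+ cells Krt13 was 2.58-fold higher (1.37 ± 0.249, limma adjusted p = 0.0411) and Krt8 was 1.54-fold higher (0.62 ± 0.0593, adjusted p = 0.0133), and none was lower. The 2 keratins of 28 compare with 8% of all genes tested (5.06% higher and 2.94% lower). In CD49d+ cells Krt13 was 3.22-fold higher (1.69 ± 0.249, adjusted p = 0.0212) and Krt19 was lower (-0.47 ± 0.0878, adjusted p = 0.0330), 2 keratins of 28 where 13.3% of all genes were called (7.69% higher and 5.66% lower). Krt19 in CD73+ cells (-0.38, adjusted p = 0.0665) and Krt8 in CD49d+ cells (0.24, adjusted p = 0.0620) were not called. In CD73+ cells the Krt13 call was lost without either unsorted, CD73+ or CD73- array and the Krt8 call without either CD73+ or CD73- array. In CD49d+ cells the Krt13 call was lost without either CD73- array, and the Krt19 call was lost whichever of the 8 arrays was left out.

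No keratin was called between the poised populations themselves. CD49d+ against CD73+ cells gave 0 keratins by limma at an adjusted p under 0.05. Of all genes tested, 0.03% (4 of 13313) were called (0.00751% higher and 0.0225% lower). At an unadjusted p under 0.05 there were 5 of the 28 keratins and 3212 of the 13313 genes, so the keratin share was not above that of all genes. Of the 5 keratins, Krt8 was lower in CD49d+ cells (-0.38 ± 0.0593, adjusted p = 0.0611). Krt32, Krt42, Krt81 and Krt88, none of them above 153 on a reprogramming array, had differences between 0.21 and 0.37.

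**Figure D4:**
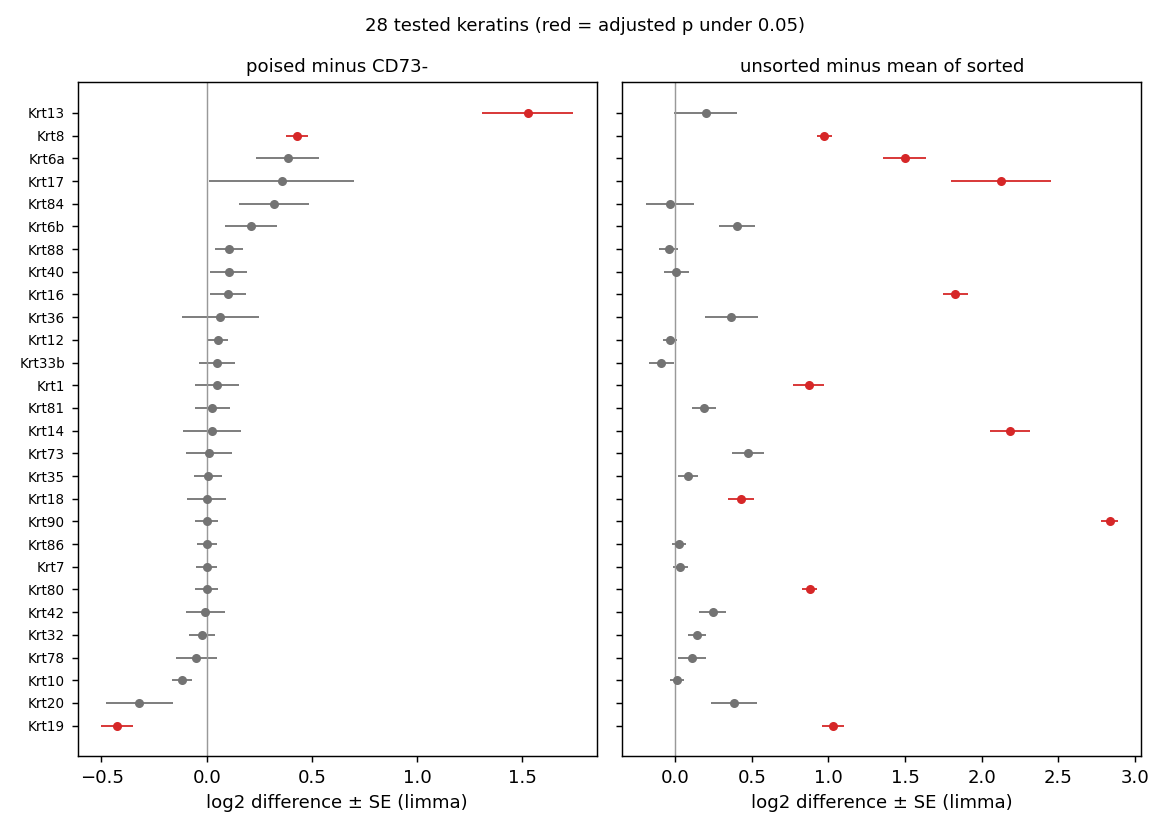
Log2 difference of each of the 28 tested keratins in poised against CD73- cells (left) and in unsorted against sorted cells (right), with bars of 1 standard error from the limma fit to the 8 reprogramming arrays and red where the adjusted p was under 0.05. On the left Krt13 has the widest difference (1.53) and Krt8 (0.43) and Krt19 (-0.42) lie on opposite sides of 0, and on the right 10 keratins are higher.

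No keratin was called between day 6 and day 9. At an adjusted p under 0.05 limma called 0 keratins, and 0% of all 13313 genes tested, between the days; 6 keratins and 1545 genes had an unadjusted p under 0.05. The 6 were Krt8, Krt19, Krt6a, Krt6b, Krt13 and Krt17, and in each of them the day 9 value was above the day 6 value in all 4 populations. That p-value measures how alike the day difference was in the 4 populations, so the shared direction is no separate support. Krt10 and Krt14, not among the 6, also rose in all 4 populations. Krt90, Krt80 and Krt1 did not, as their unsorted values were lower on day 9. The day 9 over day 6 ratio of Krt8 was 1.65-fold (0.72 ± 0.0419, adjusted p = 0.0926), Krt19 1.503-fold (0.59 ± 0.0621, adjusted p = 0.0930) and Krt6b 1.59-fold (0.67 ± 0.101, adjusted p = 0.156). Krt17 had the widest difference and also the widest error (1.24 ± 0.281, adjusted p = 0.262). Krt8 passed the threshold after quantile normalization, and Krt8 and Krt19 did so after centring each array on its median.

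Against the MEF array there was no test, since 1 array stood on one side. Krt17 alone was at least 2-fold above MEF on all 8 reprogramming arrays, from at least 2.10-fold to at least 21.8-fold because MEF was at the floor, where 4.89% of 14301 genes with signal were so raised. After quantile normalization or median centring, 0 keratins met that count. Krt8 was 1.28-fold to 5.18-fold and Krt6b 1.76-fold to 4.10-fold above MEF, each past 2-fold on 6 of the 8 arrays. Krt13 passed 2-fold on 4 arrays, Krt6a on 3, and Krt14, Krt16, Krt19 and Krt90 on 2 each. No keratin was 2-fold below MEF on all 8 arrays, where 5.78% of genes were. Only Krt8 was bright enough in MEF for a 2-fold fall to be seen, so this count was nearly fixed beforehand.

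Embryonic stem cells carried simple keratins. Against MEF, ESC was 2-fold or more higher for 3 of the 31 keratins with signal, where 12% of genes were, so the share was near the background. The 3 were Krt18 (at least 9.80-fold), Krt8 (3.76-fold) and Krt19 (2.54-fold). None was 2-fold or more lower, where 11.9% of genes were. Of the keratins, only Krt8 was bright enough in MEF for a 2-fold fall, so the count of lower ones was nearly fixed beforehand. The stratified keratins Krt1, Krt6a, Krt13 and Krt16 were at the floor in ESC. Krt17 (158), Krt10 (155), Krt14 (143) and Krt6b (128) were above it there, as were the simple keratins Krt7 (139) and Krt20 (115). The partially reprogrammed line SC4 was 2-fold apart from MEF for no keratin in either direction, where 11% of genes were higher and 11.5% lower. A 2-fold fall was again possible only for Krt8. The Krt8 of SC4 (220.0) was below every reprogramming array, its Krt19 (172) was below all but that of day 6 CD49d+ cells, and its Krt18 was at the floor.

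Genes that anchor or accompany keratin filaments were read from a list of 17 desmosome, hemidesmosome and linker genes, all tested. In poised cells 5 were higher than in CD73- cells, where 7.16% of all genes tested were, and 1 was lower, where 4.85% were. Those higher were desmoplakin Dsp, which ties keratins to desmosomes (1.27 ± 0.0780, limma adjusted p = 0.00445), the desmosomal plaque protein Pkp1 (0.95), the hemidesmosomal integrins Itgb4 (1.33) and Itga6 (0.72) and the linker Dst (0.72), and the one lower was the cadherin Dsc3 (-0.57). Dsp read 1296 to 1509.5 in the 4 poised arrays, 491 and 686 in CD73- cells and 100 in MEF. In unsorted cells 3 of the 17 were higher, where 4.16% of all genes were, and none was lower (Dsc3, Dsg3 and the cornified envelope protein Ppl, 0.45). Dsg3 was tested only because of its signal in unsorted cells, so Dsc3 and Ppl bear on this count. Dsc3 was therefore called in both comparisons, low in poised and high in unsorted cells.

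Of 14 epithelial transcription factors 12 were on the array and 8 were tested. Ehf (1.21) and Gata3 (0.36) were higher in poised cells and none was lower, to be read, like the counts that follow, against 7.16% and 4.85% of all genes higher and lower in poised cells and 4.16% and 4.38% in unsorted cells. In unsorted cells Grhl3, a factor of epidermal barrier formation, was higher (0.86) and Ehf was lower (-0.92), and Trp63, Grhl2 and Elf5 were at the floor on all 11 arrays. Among 15 other intermediate filament genes on the array, of which 12 were tested, Synm was lower in poised cells (-0.60) and Prph was higher in unsorted cells (0.31). Prph was at the floor on all sorted arrays and was tested only because of its signal in unsorted cells. Vimentin (Vim) stayed between 7654 and 11101 on every array, ESC included. In the poised comparison 1 fibroblast marker, Col3a1, was lower (-1.13), the keratinocyte markers Dsc3 and Krtdap (-1.34) and the trophoblast markers Ascl2 (-0.95) and Hand1 (-0.85) were lower and the mesothelial marker Msln was higher (2.39), and their part in the differences of Krt13, Krt8 and Krt19 was not tested.

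Members that were high in the same arrays were in part neighbours in the genome. In the RefSeq gene order on chromosome 11, Krt14, Krt16, Krt17 and Krt42 follow each other among protein-coding genes, with Krt9 and Krt19 just before them and Krt13 beyond Krt15. Krt42 did not share the high values of its neighbours in unsorted cells (153 and 138, against up to 145 in sorted cells, adjusted p = 0.139), and neither Krt9 nor Krt15 had signal on a reprogramming array. On chromosome 15 Krt6b and Krt6a lie side by side, with Krt90 nearby and Krt8 next to Krt18. Over the 8 reprogramming arrays, which share their days and cultures, the log2 values of Krt14 and Krt16 had a Pearson correlation of 0.99, those of Krt6a and Krt17 of 0.97, and those of Krt8 and Krt18 of 0.76. Over the 6 sorted arrays alone these values were 0.50, 0.92 and 0.01. Of the other pairs computed, Krt6a with Krt16 had 0.84, Krt14 with Krt17 0.80, Krt8 with Krt17 0.78, Krt16 with Krt17 0.70 and Krt8 with Krt19 0.43 over the sorted arrays.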

How the data were processed

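The deposited table held linear intensities of 41345 probe sets on 11 arrays, with 1 column per sample. The submitters' processing notes name Partek; for the background correction, summarisation and scaling by the authors, no method is given in the sources used here. The lowest value of 100 bounds every low level and shrinks folds of dim genes. The number of arrays, 1 per group, limits the precision. Of the probe sets, 23521 had 1 gene symbol, 1814 had several and 16010 had none.

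Values were taken to log2. limma 3.58.1 (R 4.3.3, lmFit and eBayes) was fitted to the 8 reprogramming arrays with population and day as terms (residual df 3), over the 13313 genes above the floor on at least 1 of them, with Benjamini-Hochberg adjustment over all of these and calls at adjusted p under 0.05. The fit was tested on simulated data. MEF, SC4 and ESC entered no test. Every keratin above the floor on at least 1 array could be named, those called or 2-fold from a control first, and partner genes were named where called or of widest range. Alternatives were quantile normalization, median centring, no filter, the mean of all probe sets, no day term, the 6 sorted arrays only, and leaving out each array. The members, classes and gene lists were chosen with earlier results of these data known, and the comparison of unsorted with sorted cells was added after the values were seen. Promoter windows came from RefSeq.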

Additional observations from a re-analysis of the deposited data

Results flagged for a closer look

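Krt17 differed between the days in the comparison of poised with CD73- cells. Its log2 difference was -0.35 on day 6, where both poised arrays (222.1 and 209.6) were below the CD73- array (275), and 1.06 on day 9, where both (802 and 758) were above it (373), a gap of 1.42. Krt33b, a hair shaft keratin close to the floor, also changed sign, from -0.07 on day 6 to 0.17 on day 9, a gap of 0.23. Both were singled out because each poised array moved one way on one day and the opposite way on the other. Krt73 and Krt78, each at the floor on some of these arrays, also met this description. With 1 array per population and day, none of these differences between the days was tested.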

How the results depend on the processing

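No keratin difference that was called changed sign under any alternative. Without the day term, 0 keratins were called in poised against CD73- cells, in CD73+ against CD73- cells and in CD49d+ against CD73- cells. With no filter on dim genes, 1 keratin was called in each of the latter comparisons, as with the 6 sorted arrays only, and 1 in CD49d+ against CD73- cells after quantile normalization. Quantile normalization gave 1 call in CD49d+ against CD73+ cells and 1 in day 9 against day 6, and median centring gave 2 calls between the days. The count of keratins 2-fold above MEF on all 8 arrays was 0 after quantile normalization or median centring and 2 at 1.5-fold. In unsorted against sorted cells 7 to 11 keratins were called under the alternatives that keep all arrays. The share of all genes called under each alternative is not set beside these counts or those below. A gain or loss of calls can therefore not be read as particular to keratins.

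Leaving out 1 array at a time gave 0 to 3 calls for poised against CD73- cells, 0 to 2 for CD73+ against CD73-, 0 to 1 for CD49d+ against CD73-, 0 for CD49d+ against CD73+ and for the days, 0 to 10 for unsorted against sorted, 1 above MEF and 0 below it. The median of the simple keratins ranged from -0.0353 to 0.0112 and that of the stratified keratins from -0.03 to 0.17. Where a population was left with 1 array, that array was assumed to vary like the others, and genes then fitted exactly had a difference and no p. No paired analysis was possible because each group has 1 array and no replicate numbers to pair, and the day term already compares the populations within each day. Values at the floor have no order, and differences near it are understated.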
